A study of Homo sapiens with 12 samples.

Results

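The genes described here are the kinases CDK6 and CDK4, the D cyclins CCND2 and CCND3, the RB family members RB1 and RBL1, the inhibitors CDKN1B, CDKN2C and CDKN2D, and the transcription factor E2F1. These 10 genes were taken by symbol from the 58288 genes of each table, and all 10 were among the 21455 genes with a mean level of at least 1 RPKM in both tables. RPKM is a gene's read count divided by its exon length in kilobases and by the library total in units of 1000000 reads. RNA was sequenced from HPB-ALL and KOPTK1, 2 established human T-ALL (T-cell acute lymphoblastic leukemia) cell lines. According to the labels, each line gave 3 libraries of cells infected with pLKO.1 lentivirus carrying shRNA against SHQ1 and 3 of cells infected with shRNA against GFP. The labels also give 48 h of culture and 2 µg/mL puromycin for all cells. The paper's methods describe 48 h of culture after infection and then a further 48 h under puromycin. Library columns are headed only by the numbers 7 to 12 in HPB-ALL and 1 to 6 in KOPTK1, which match no shRNA label. Libraries were therefore grouped by line, SHQ1-depleted and control cells were not compared, and every value over all libraries of a line mixes both kinds of cells. Each line stands for 1 leukemia, and nothing in the labels says that its libraries came from separate cultures, so p-values measure the spread among these libraries.

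D cyclins bind CDK4 or CDK6, and the active kinase phosphorylates RB1 and its relatives RBL1 and RBL2, the pocket proteins. Unphosphorylated pocket proteins hold E2F transcription factors in check, and their phosphorylation frees E2F to switch on its targets, which include genes for DNA replication as well as E2F1 and RBL1. CDKN2C and CDKN2D belong to the INK4 family, which blocks CDK4 and CDK6, while CDKN1B acts mainly on cyclin-CDK2 complexes. CDK6 and CCND3 are known for their roles in the expansion of immature thymocytes and in T-ALL.

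The 12 libraries held 22884785 to 42842791 counted reads, and the 10 genes had from 363 reads (CCND2, HPB-ALL library 11) to 110724.5 reads (CDK6, HPB-ALL library 8) in a library. All 15 T-lineage markers had a median of at least 1 RPKM, summing to 1430 to 1474 RPKM in HPB-ALL and 2049 to 2517 in KOPTK1 (1213 to 1281 and 1187 to 1216 without TRBC2, a T-cell receptor chain), as did 1 of 6 B-lineage, 0 of 6 myeloid, 1 of 4 erythroid and 1 of 4 stromal markers. The B-lineage marker above that level was CD79A, a B-cell receptor chain that some T-ALL cells also express. The summed level of the B-lineage list was 42.5 to 47.9 RPKM in HPB-ALL and 7.55 to 26.5 in KOPTK1, and 3 of its 6 genes stayed under 1 RPKM in every library. SHQ1 stood at 70.3, 71.8 and 70.9 RPKM in libraries 7, 8 and 9 and at 47.6, 46.4 and 49.1 in libraries 10, 11 and 12 of HPB-ALL. In KOPTK1 it stood at 45.7, 44.1, 46.4, 41.9, 41.8 and 39.3 RPKM in libraries 1 to 6. No group was read from these values.

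KOPTK1 libraries 1, 2 and 3 stood apart from the other KOPTK1 libraries. CD79A was at 40.3 to 45.9 RPKM in HPB-ALL, at 24.0, 24.6 and 24.3 in KOPTK1 libraries 1, 2 and 3, and at 7.17, 6.82 and 5.87 in libraries 4, 5 and 6. A set of 13 genes with a mean over 50 CPM (read count divided by the library total on the same scale) in KOPTK1 and at least 20 times lower in HPB-ALL, chosen after the values were seen, summed to 1119, 1116 and 1141 CPM in KOPTK1 libraries 1, 2 and 3 and to 1908, 1912 and 1900 in libraries 4, 5 and 6. In HPB-ALL the same sum was 10.2, 9.02 and 9.01 CPM in libraries 7, 8 and 9 and 65.6, 64.5 and 61.1 in libraries 10, 11 and 12. For all genes with a mean of at least 10 RPKM whose medians in HPB-ALL and in KOPTK1 libraries 4 to 6 lay at least 1.5-fold apart, the quartiles of the place of libraries 1 to 3 were 49.2%, 55.2% and 60.1% of the way from HPB-ALL to libraries 4 to 6. Differences between the lines are therefore given with and without libraries 1 to 3, whose part in them was not tested. The shRNA kind of each library is unknown. Values that leave out libraries 1 to 3, or libraries 10 to 12 of HPB-ALL, may therefore not hold both shRNA kinds of that line. In RNA from whole cultures, fewer cells of a kind and less RNA per cell cannot be told apart.

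CDK6 was the most abundant of the 10 genes in every library of both lines. It lies on the minus strand of chromosome 7 (GRCh38, chr7:92604921-92836594), where 11.7 kb of exon are spread over 232 kb. In HPB-ALL its level was 224, 224, 216, 220, 211 and 216 RPKM in libraries 7 to 12. In KOPTK1 it was 244, 246, 246, 274, 276 and 289 RPKM in libraries 1 to 6. The lines did not overlap, and within KOPTK1 the 3 lowest values were those of libraries 1 to 3. CDK6 was higher in KOPTK1 by 0.27 on the log2 scale (SE 0.05, 95% interval 0.17 to 0.37, adjusted p = 1.8e-04, edgeR quasi-likelihood test), a 1.21-fold difference, and by 0.35 without libraries 1 to 3. It ranked above 99.3% to 99.5% of the 21455 genes in each library and drew 77563 to 110724.5 reads per library.

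The lines were then compared over all libraries, with both shRNA kinds in each. Of the 10 genes, 6 were higher in KOPTK1 (CDK6, CCND2, CCND3, RB1, RBL1 and E2F1), 2 were higher in HPB-ALL (CDK4 and CDKN2D), and CDKN1B and CDKN2C did not pass the test. Differences between the lines were common throughout: 13662 of the 21455 genes, or 63.7%, passed an adjusted p of 0.05, with 6786 higher in KOPTK1 and 6876 higher in HPB-ALL. The count of 8 of 10 is read against that share and singles out nothing by itself. Small differences depended on the scale. For levels relative to the library's median gene the difference was 0.02 for RB1, 0.21 for CDK6 and 0.19 for CCND3, and without a filter on low genes it was -0.11, 0.06 and 0.05. CCND2 differed by more than 99.2% of all genes tested, RBL1 by more than 90.4% and E2F1 by more than 84.7%. CDK4, CDK6 and CCND3 lay in the middle, above 54.3%, 47.8% and 46.5% of genes, and CDKN2C differed less than nearly all genes, above 2.17%. Without KOPTK1 libraries 1 to 3, 7 of the 10 genes passed against 68.5% of all genes, the call of CDKN2D being lost (adjusted p = 0.077, edgeR). The relative level (log2 of RPKM plus 0.1, minus the library's median over the 21455 genes) did not overlap between lines for 7 of the 10 genes, and for 44.1% of all genes. It did not overlap for 58.3% of protein-coding genes, the class of all 10, when only these were used. Without centring, or when centred on genes of at least 10 RPKM, it did not overlap for 6 of the 10 genes. Like the count of calls, these counts single out nothing by themselves.

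**Figure D1:**
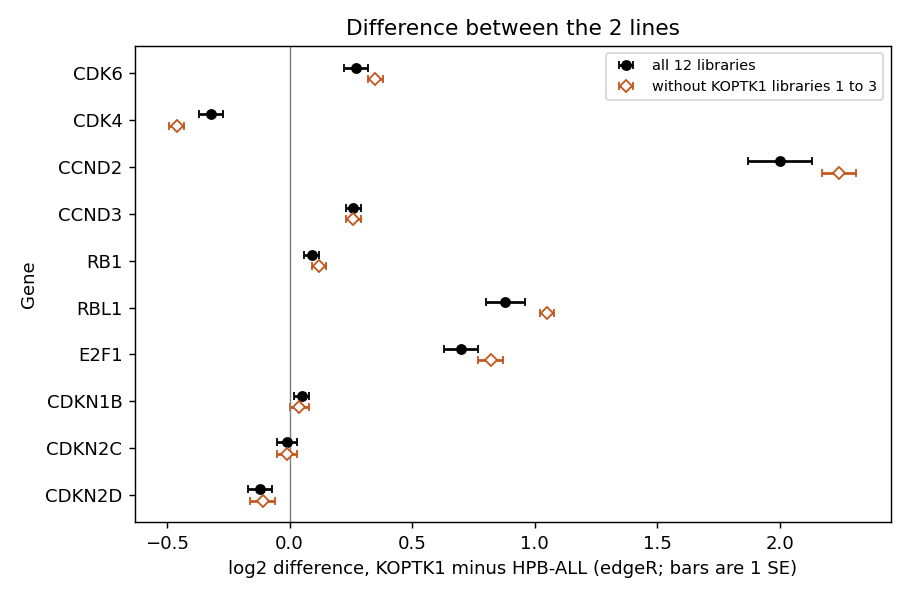
Difference between the lines in log2 units (KOPTK1 minus HPB-ALL, edgeR) for each gene, from all 12 libraries (filled circles) and without KOPTK1 libraries 1 to 3 (open diamonds), with bars of 1 SE. CCND2 lies at 2.00, RBL1 at 0.88 and E2F1 at 0.70, whereas CDKN1B (0.05) and CDKN2C (-0.01) lie near 0 and CDK4 lies at -0.32.

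CDK4, the sister kinase, ran opposite to CDK6. It lies on the minus strand of chromosome 12 (chr12:57747727-57752521) with 2.08 kb of exon. Its level was 53.1, 57.3, 54.0, 57.1, 57.4 and 56.2 RPKM in HPB-ALL libraries 7 to 12 and 49.8, 45.3, 49.1, 41.3, 39.8 and 41.3 in KOPTK1 libraries 1 to 6. The lines did not overlap, and libraries 4 to 6 were the lowest. CDK4 was 1.25-fold higher in HPB-ALL, a log2 difference of -0.32 (SE 0.05, adjusted p = 1.2e-04, edgeR), and -0.46 without libraries 1 to 3. Of its exon bases, 1078 are shared with TSPAN31 on the opposite strand, whose median was 18.2 RPKM in HPB-ALL and 13.5 in KOPTK1, and without strand information the reads of the shared bases cannot be told apart. The ratio of CDK6 to CDK4 within a library, which does not depend on how the library was scaled, had a median of 3.88 in HPB-ALL (3.68 to 4.21) and 5.99 in KOPTK1 (4.88 to 6.98). The difference of 0.59 in mean log2 ratio gave p = 0.00216 (exact permutation test, two-sided), the smallest value that 6 against 6 libraries allow. Without KOPTK1 libraries 1 to 3 it was 0.80. CDK6 made up a median of 79.5% of the summed RPKM of both kinases in HPB-ALL and 85.7% in KOPTK1.

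Of the D cyclins, which activate these kinases, CCND3 was the main one in both lines and CCND2 was the gene that differed most. CCND2 (chr12:4273772-4305350, plus strand) stood at 1.84, 1.73, 1.78, 1.72, 1.38 and 1.58 RPKM in HPB-ALL libraries 7 to 12. In KOPTK1 it stood at 5.22, 5.52, 5.45, 7.71, 8.15 and 7.85 RPKM in libraries 1 to 6. Every KOPTK1 library was above every HPB-ALL library, and libraries 4 to 6 were above libraries 1 to 3. The difference was 4-fold, or 2.00 on the log2 scale (SE 0.13, 95% interval 1.72 to 2.28, adjusted p = 8.5e-08, edgeR), and 4.71-fold without libraries 1 to 3. CCND2 was the lowest of the 10 genes in both lines, with a median of 1.72 RPKM in HPB-ALL and 6.62 in KOPTK1. CCND2, CCND3 and RBL1 share 126, 24 and 211 exon bases with genes on the opposite strand, whose reads there cannot be told apart either.

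CCND3 (chr6:41934933-42050357, minus strand) ranged from 49.2 to 52.8 RPKM in HPB-ALL with a median of 51.8, and from 59.3 to 62.9 in KOPTK1 with a median of 61.3. The lines did not overlap. KOPTK1 libraries 1 to 3 did not sit between HPB-ALL and the rest of KOPTK1, at 61.5, 59.3 and 62.7 RPKM, against 62.9, 60.9 and 61.1 in libraries 4 to 6. The difference of 0.26 on the log2 scale (SE 0.03, adjusted p = 3.0e-06, edgeR) was 0.26 without libraries 1 to 3 as well. CCND1, the D cyclin of many epithelial tissues, had a highest value of 0.194 RPKM in HPB-ALL and 0.219 in KOPTK1. CCND3 thus made up a median of 96.5% of the summed D cyclin RPKM in HPB-ALL and 90.0% in KOPTK1, and CCND2 3.21% and 9.69%. The ratio of CCND2 to CCND3 had a median of 0.0351 in HPB-ALL (0.0287 to 0.0372) and 0.108 in KOPTK1 (0.0863 to 0.135), a log2 difference of 1.66 (p = 0.00216, exact permutation test, two-sided), and 1.92 without libraries 1 to 3. The ratio of CCND3 to CDK6 was 0.228 to 0.245 in HPB-ALL and 0.212 to 0.255 in KOPTK1, a log2 difference of -0.01 (p = 0.890, exact permutation test). Without KOPTK1 libraries 1 to 3 that difference was -0.10 (p = 0.0238, exact permutation test), so the call changes with these libraries.

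**Figure D2:**
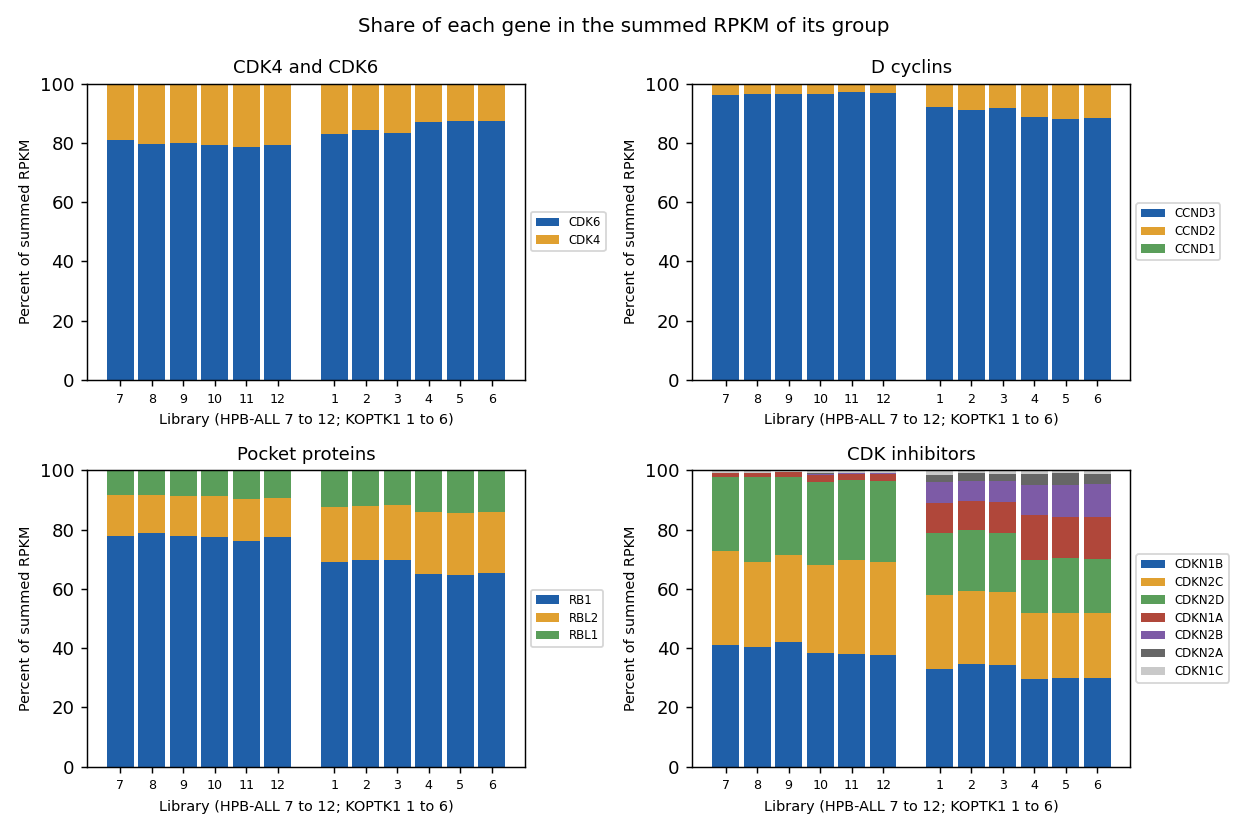
Share of each gene in the summed RPKM of its group, 1 bar per library, for the kinases, the D cyclins, the pocket proteins and 7 CDK inhibitors. CDK6, CCND3 and RB1 make up the largest part in every library, and the median share of CDKN1B, CDKN2C and CDKN2D together is 97.2% in HPB-ALL and 74.6% in KOPTK1.

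Among the pocket proteins RB1 differed little between the lines, while its relatives RBL1 and RBL2 were higher in KOPTK1. RB1 (chr13:48303775-48481986, plus strand) ranged from 119 to 128 RPKM in HPB-ALL with a median of 125, and from 127 to 139 in KOPTK1 with a median of 131. The ranges overlapped slightly. The log2 difference was 0.09 (SE 0.03, 95% interval 0.02 to 0.16, adjusted p = 0.022, edgeR), smaller than that of most genes, and it missed the threshold without KOPTK1 library 6 (adjusted p = 0.052, edgeR). Without libraries 1 to 3 it was 0.12. RBL1 (chr20:36996349-37095995, minus strand) stood at 13.8, 13.4, 13.8, 13.7, 14.9 and 14.9 RPKM in HPB-ALL libraries 7 to 12. In KOPTK1 libraries 1 to 6 it stood at 22.7, 22.6, 21.4, 28.3, 30 and 29.7 RPKM. The lines were far apart, and KOPTK1 libraries 1 to 3 lay about midway, at 47.8% to 56.3% of the way from HPB-ALL to libraries 4 to 6. The RBL1 difference was 1.84-fold, or 0.88 on the log2 scale (SE 0.08, adjusted p = 1.5e-06, edgeR), and 1.05 without libraries 1 to 3.

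RBL2, the pocket protein typical of resting cells, was at 20.8 to 22.8 RPKM in HPB-ALL and 34.0 to 44.5 in KOPTK1, a log2 difference of 0.84 (SE 0.08, adjusted p = 9.3e-07, edgeR), and 1.0 without libraries 1 to 3. RB1 made up a median of 77.5% of summed pocket protein RPKM in HPB-ALL and 67.1% in KOPTK1. The RB1 to RBL1 ratio had a median of 8.92 in HPB-ALL (7.96 to 9.40) and 5.12 in KOPTK1 (4.52 to 5.89), a log2 difference of -0.77 (p = 0.00216, exact permutation test, two-sided), and -0.93 without libraries 1 to 3.

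E2F1, the transcription factor released from RB1, was higher in KOPTK1. The gene (chr20:33675683-33686404, minus strand) stood at 30.4, 33.7, 31.4, 36.5, 39.1 and 34.7 RPKM in HPB-ALL libraries 7 to 12 and at 52.0, 48.4, 49.7, 60.2, 61.5 and 60.2 in KOPTK1 libraries 1 to 6. No library of either line reached the range of the other, and the 3 lowest KOPTK1 values were those of libraries 1 to 3. The difference was 1.62-fold, or 0.70 on the log2 scale (SE 0.07, 95% interval 0.54 to 0.86, adjusted p = 3.3e-06, edgeR), and 0.82 without libraries 1 to 3. The E2F1 to RB1 ratio had a median of 0.272 in HPB-ALL (0.238 to 0.330) and 0.420 in KOPTK1 (0.371 to 0.458), a log2 difference of 0.60 (p = 0.00216, exact permutation test, two-sided), and 0.70 without libraries 1 to 3. Of the summed RPKM of E2F1, E2F2 and E2F3, the activating E2Fs, E2F1 made up a median of 35.3% in HPB-ALL and 44.5% in KOPTK1.

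Words of the E2F binding motif were found in the promoters of RBL1 and E2F1 among the members searched. The 250 bases before the gene's start (RefSeq sequences on GRCh38.p14) were searched on both strands for TTTCCCGC, TTTCGCGC, TTTGCCGC and TTTGGCGC. RBL1 and E2F1 each held 2 matches, and no match was found in the promoters of CDK6, CDK4, CCND3, RB1, CDKN1B, CDKN2C and CDKN2D. The promoter of CCND2 was not searched here. Of all 27305 promoters of this length, 2.79% held a match. The matches are printed in capitals on the strand of the gene, 5′ to 3′, with up to 10 bases on either side. In RBL1 the windows are chr20:37096006-37096033 and chr20:37095998-37096023, which overlap, and in E2F1 they are chr20:33686401-33686428 and chr20:33686388-33686415. The start used for the search can differ from that of the gene coordinates given above. By those coordinates E2F1 starts at 33686404 on the minus strand, so most of its second match lies inside the gene. The first E2F1 match reads GCGGCAAA, the reverse complement of TTTGCCGC. A match is a description of the letters and no evidence of binding, and its bearing on the levels in either line was not tested. CDK6, CCND3 and RB1, also higher in KOPTK1, had no match.
RBL1, first match: agctgcagatTTTCGCGCgctttggcgc
RBL1, second match: tttcgcgcgcTTTGGCGCaggtggtt
E2F1, first match: tggctctttcGCGGCAAAaaggatttgg
E2F1, second match: gcaaaaaggaTTTGGCGCgtaaaagtgg

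The inhibitors CDKN1B, CDKN2C and CDKN2D differed by at most 0.12 between the lines on the log2 scale, in either direction. CDKN1B (chr12:12717124-12722371, plus strand) ranged from 28.8 to 30.9 RPKM in HPB-ALL and from 29.2 to 32 in KOPTK1, and the lines overlapped. Its log2 difference was 0.05 (SE 0.03, 95% interval -0.02 to 0.13, adjusted p = 0.18, edgeR). CDKN2C (chr1:50960745-50974633, plus strand) ranged from 21.4 to 24.1 RPKM in HPB-ALL and from 22 to 23.2 in KOPTK1, a log2 difference of -0.01 (SE 0.04, 95% interval -0.09 to 0.06, adjusted p = 0.80, edgeR). Without KOPTK1 libraries 1 to 3 the differences were 0.04 for CDKN1B, -0.01 for CDKN2C and -0.11 for CDKN2D. The 95% intervals from all libraries reach 0.13 in CDKN1B and -0.09 in CDKN2C under this scaling. They set no bound across scalings, since leaving out the filter on low genes shifted relative level differences by -0.14. CDKN2D (chr19:10566462-10569059, minus strand) stood at 18.6, 22, 19.4, 21.3, 20.5 and 21.0 RPKM in HPB-ALL libraries 7 to 12 and between 18.3 and 19.5 in KOPTK1. It was 1.09-fold higher in HPB-ALL (log2 difference -0.12, SE 0.05, adjusted p = 0.032, edgeR), and this call was lost without HPB-ALL library 8, 10, 11 or 12 and without KOPTK1 library 1, 2 or 3.

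Set against CDK6, CDKN1B and CDKN2C were lower in KOPTK1. By themselves they differed by 0.05 and -0.01 on the log2 scale and CDK6 by 0.27 (edgeR), so both ratios mostly restate the CDK6 difference. The CDKN1B to CDK6 ratio had a median of 0.138 in HPB-ALL (0.133 to 0.143) and 0.117 in KOPTK1 (0.105 to 0.130), a log2 difference of -0.21. The CDKN2C to CDK6 ratio had a median of 0.105 in HPB-ALL (0.0976 to 0.114) and 0.0875 in KOPTK1 (0.0783 to 0.0930), a log2 difference of -0.28. Both gave p = 0.00216 in the exact permutation test, and without libraries 1 to 3 the differences were -0.31 and -0.36. The ratio of the INK4 genes CDKN2C and CDKN2D was 0.988 to 1.29 in HPB-ALL and 1.18 to 1.24 in KOPTK1, and its log2 difference of 0.11 missed the threshold (p = 0.0693, exact permutation test), as did 0.10 without libraries 1 to 3 (p = 0.226, exact permutation test). Of the 8 ratios compared, 6 passed, but the ratios share genes, CDK6 among them, and are not independent. Ratios of other gene pairs were not computed, and 63.7% of all genes differed between the lines. The count of 6 therefore singles out nothing by itself.

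Further inhibitors were higher in KOPTK1, and CDKN2A and CDKN2B were near 0 in HPB-ALL. CDKN2B, an INK4 inhibitor, was at 0 reads in HPB-ALL libraries 7 and 9, at 2 reads in library 8, at 0.371, 0.195 and 0.236 RPKM in libraries 10, 11 and 12, and at 6.19 to 11.2 RPKM in KOPTK1. CDKN2A, its neighbour on the chromosome, reached 0.142 RPKM at most in HPB-ALL and 2.19 to 4.26 in KOPTK1. Neither reached the minimum level in both tables, so neither was tested. CDKN1A, an inhibitor induced by p53, ranged from 1.08 to 1.84 RPKM in HPB-ALL and from 8.76 to 15.6 in KOPTK1, with a log2 difference of 3.06 (SE 0.20, adjusted p = 7.7e-08, edgeR), and 3.36 without libraries 1 to 3. CDKN1C was at 0.421 to 0.755 RPKM in HPB-ALL and 0.949 to 1.32 in KOPTK1 and was not tested. In each of these 4 genes the lines did not overlap, and the same held for the relative level of 44.1% of the 21455 genes tested. Of the 4, only CDKN1A was among those tested. CDKN1B, CDKN2C and CDKN2D together made up a median of 97.2% of the summed RPKM of the 7 inhibitors in HPB-ALL (96.0% to 97.9%) and 74.6% in KOPTK1 (69.8% to 79.9%).

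The order of median levels per length differed between the lines in the places of CDK4 and RBL1. In HPB-ALL it ran CDK6, RB1, CDK4, CCND3, E2F1, CDKN1B, CDKN2C, CDKN2D, RBL1 and CCND2. CDK6 stood 1.76-fold above RB1, and RB1 2.23-fold above CDK4. E2F1 and CDKN1B, and likewise CDKN2C and CDKN2D, did not differ beyond the spread of their ratio (p = 0.0625 for each, exact sign-flip permutation test over 6 libraries). The other 7 pairs of neighbours gave p = 0.0312 in the exact test, the smallest value it allows. In both lines the pairs were picked by the medians of the same libraries on which they were tested. These p-values are therefore no independent support for the order. In KOPTK1 the order ran CDK6, RB1, CCND3, E2F1, CDK4, CDKN1B, RBL1, CDKN2C, CDKN2D and CCND2, so that CDK4 stood below CCND3 and E2F1, and RBL1 stood above CDKN2C and CDKN2D. There CDK6 stood 1.98-fold above RB1. Neighbours that did not differ beyond their spread were CCND3 and E2F1 (p = 0.0625, exact sign-flip permutation test) and RBL1 and CDKN2C (p = 0.1562, same test). Over all 6 libraries this spread held the step between libraries 1 to 3 and 4 to 6. In libraries 4 to 6 RBL1 was at least 28.3 RPKM and CDKN2C at most 23.2. In libraries 1 to 3 RBL1 lay at 21.4 to 22.7 RPKM and CDKN2C reached 22.8. Every CCND3 value there (59.3 RPKM or more) was above every E2F1 value. In libraries 4 to 6 CCND3 lay at 60.9 to 62.9 RPKM and E2F1 at 60.2 to 61.5. The order was not tested within either set. Between its libraries CDK6 varied by 2.33% in HPB-ALL and 7.43% in KOPTK1 (coefficient of variation), and CCND2 by 10.1% and 20.8%.

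For several genes, libraries 1 to 3 lay between HPB-ALL and the rest of KOPTK1. On a scale from the HPB-ALL median (0%) to the median of KOPTK1 libraries 4 to 6 (100%), these 3 libraries lay at 44.2% to 48.6% for CDK6, 44.3% to 74.2% for CDK4, 57.0% to 62.0% for CCND2 and 54.5% to 68.4% for E2F1. For CD79A they lay at 51.1% to 52.6%. RB1 lay lower, at 16.6% to 53.1%, and CCND3 at 80.8% to 117%. CDKN1B, CDKN2C and CDKN2D, whose values in HPB-ALL and in libraries 4 to 6 overlapped, have no meaningful place on this scale. The part of these libraries in the differences between the lines was not tested beyond the fits that leave them out.

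The wider pathway differed between the lines in both directions, and its counts are read against the 63.7% of all genes that passed. Of 32 further genes, 28 were tested and 24 passed, 12 higher in each line, with a median log2 difference of -0.01 against 0.01 for all genes tested. In the group of other cyclins and CDK partners, 8 of 9 tested passed, 3 higher in KOPTK1 and 5 in HPB-ALL. The E cyclins, partners of CDK2 at the start of S phase, were both higher in KOPTK1: CCNE1 by 0.71 (SE 0.07, adjusted p = 1.8e-06, edgeR) and CCNE2 by 0.63 (SE 0.08, adjusted p = 1.4e-05, edgeR) on the log2 scale, and by 0.77 and 0.73 without libraries 1 to 3. CCNE1 had a range of 10.9 to 13.9 RPKM in HPB-ALL and 18.9 to 21.9 in KOPTK1, and CCNE2 a range of 20.5 to 26.9 and 33.5 to 41.4.

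Of the other E2F and DP genes, all 9 were tested and 8 passed, 4 higher in each line, again beside 63.7% of all genes. E2F5, which works with RBL1 and RBL2 as a repressor, was higher in HPB-ALL, at 10.8 to 12.4 RPKM against 3.98 to 7.72 in KOPTK1 (log2 difference -0.96, SE 0.15, adjusted p = 7.0e-05, edgeR), a difference of -1.41 without libraries 1 to 3. Of the further pocket protein and DREAM complex genes, 5 of 7 passed, 4 higher in KOPTK1 and 1 in HPB-ALL, and without KOPTK1 libraries 1 to 3 the counts were 2 and 1. Of the further inhibitors and inhibitor regulators, 3 of the 3 tested passed, 1 higher in KOPTK1 (CDKN1A) and 2 in HPB-ALL. Known targets of E2F in DNA replication split as well: 11 of 16 passed, a share close to the 63.7% of all genes, 6 higher in KOPTK1 and 5 in HPB-ALL, with a median of 0.05. Among them, named after their values were seen, PCNA, the sliding clamp of DNA polymerase, was higher in KOPTK1 by 0.80 (SE 0.07, adjusted p = 1.3e-06, edgeR) and TYMS, thymidylate synthase, was higher in HPB-ALL by a log2 difference of -0.46 (SE 0.06, adjusted p = 1.6e-05, edgeR). Without libraries 1 to 3 these differences were 0.94 and -0.62.

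The genes most like CDK6 across the 12 libraries were found by the root-mean-square distance between relative levels, each gene centred on its own mean, among 6020 genes with a mean of at least 10 RPKM in both tables. The 5 closest protein-coding genes were SKP1 (0.0276 log2 units), RHEB (0.0291), HNRNPDL (0.0299), LATS1 (0.0325) and STK4 (0.0327). Of the other members, CCND3 was closest, at a distance of 0.0744 and in place 503, followed by RB1 at 0.0984. CDK4 was farthest, at 0.337, and CCND2 was too low to be compared. These distances are over 12 libraries of 2 lines and share the line and the library, so they describe the libraries at hand.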

How the data were processed

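RNA-Seq of rRNA-depleted total RNA was deposited as 1 table per cell line, each with 58288 genes and 6 library columns. The authors' estimated counts per gene (16.2% of the deposited values are fractional reads, not RPKM) were rounded for edgeR and DESeq2. The submitters' processing notes name hg38, Trimmomatic 0.36, STAR 2.5.4b, Picard 2.18.7, featureCounts 1.6.2 and edgeR 3.22.3, without roles; the paper's methods name another build for junction reads. Coordinates are those of the deposited tables, and all 10 genes overlapped their RefSeq GRCh38 position. The library kit named in the methods does not mark strand. Each table also holds the authors' fold change, F statistic, p-value and FDR (4 columns), which were not used. The deposited average log2 CPM of a line, computed by the authors, served only as an alternative for the ratios.

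The 12 library columns carry numbers that match no sample label. Each was given to its cell line, because the labels of the 6 samples of a line name that table, and to no shRNA group by order or value. The planned tests of SHQ1 depletion were therefore not run.

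RPKM was computed from counts, library totals and exon lengths. The 21455 genes that averaged 1 RPKM or more in each table were tested between lines with edgeR 4.0.16 (R 4.3.3; TMM, quasi-likelihood, Benjamini-Hochberg over all of them, threshold 0.05). The plan had assumed normalized values and gave only a description of levels between lines; the edgeR test and its alternatives were added after the counts were seen. Ratios were compared by exact permutation tests and neighbours in the order of levels by exact sign-flip tests, both two-sided and unadjusted. On simulated data with 200 genes changed by 1 log2 unit among 21455, 87% were recovered and 3.333% of calls were false. These simulated libraries were drawn independently and few genes were changed, unlike the data, where 63.7% passed and sets of libraries stood apart. The rates therefore do not cover small differences such as that of RB1. Symbols matched 95.9% of identifiers. DESeq2 1.42.0, other scalings and filters, and leaving out libraries were the alternatives.

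The 10 genes and the gene lists were chosen with earlier results of these data known. Named genes were the members, SHQ1, CCND1, CDKN2A, CDKN2B, RBL2, the 5 tested pathway genes with the largest difference in relative level between lines, markers, and the 5 protein-coding genes closest to CDK6. CDKN1C, PCNA, TYMS and TSPAN31 fall outside this rule and were named after their values were seen. Counts limit precision little here, and p-values cover the spread among the libraries of a line.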

Additional observations from a re-analysis of the deposited data

Results flagged for a closer look

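Of 36 sets of 6 library values examined (10 levels and 8 ratios in each line), 2 held a library far from the others by Dixon's test at its 95% critical value, and chance flags about 1 set in 20. The CCND2 to CCND3 log2 ratio in HPB-ALL had a gap of 0.670 of its range, with library 11 at -5.12 and the others between -4.87 and -4.75. CCND2 in that library rested on 363 reads. The CDKN2D level in KOPTK1 had a gap of 0.671 of its range, with library 5 at 19.5 RPKM and the others between 18.3 and 18.7.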

How the results depend on the processing

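No paired analysis was possible because the library columns carry no replicate number or shRNA label. The planned tests of SHQ1 depletion and their alternatives were not run for the same reason, and the order of neighbours could not be tested with a library left out, since 5 libraries allow no p below 0.0625.

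Without libraries 1, 2, 3, 10, 11 and 12 (sets picked once their values were known), the log2 difference in ratio was -0.10 for CCND3/CDK6, -0.34 for CDKN1B/CDK6, -0.99 for RB1/RBL1 and 0.83 for E2F1/RB1, and the share of all genes whose relative levels did not overlap was 70.0%. Without KOPTK1 libraries 1 to 3 the CCND3/CDK6 difference was -0.10 and passed the threshold (p = 0.0238, exact permutation test). With single libraries left out, the log2 differences in ratio ranged from 0.54 to 0.65 for CDK6/CDK4, 1.59 to 1.72 for CCND2/CCND3, -0.03 to 0.02 for CCND3/CDK6, 0.07 to 0.15 for CDKN2C/CDKN2D, -0.24 to -0.18 for CDKN1B/CDK6, -0.30 to -0.25 for CDKN2C/CDK6, -0.81 to -0.73 for RB1/RBL1 and 0.56 to 0.66 for E2F1/RB1. Of these calls, CDKN2C/CDKN2D changed: without HPB-ALL library 7 its difference of 0.15 passed (p = 0.00216, exact permutation test). The edgeR counts ranged from 12888 to 13921 genes and from 7 to 8 members, and the share of genes not overlapping from 44.5% to 49.5%.

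On a scale not divided by length, the mean log2 ratio of neighbours turned to -0.81 for CDK4 over CCND3 and -1.41 for CDKN2D over RBL1 in HPB-ALL, and to -0.86 for CDKN1B over RBL1 and -0.59 for CDKN2D over CCND2 in KOPTK1. Without the filter on low values, the differences in relative level shifted by -0.14 (and by 0.1 with protein-coding genes only), the RB1 relative level difference was -0.11 against 0.02, and RB1 lost its edgeR call (adjusted p = 0.64), while 19484 of 48405 genes passed. Without HPB-ALL libraries 10 to 12, RB1 (adjusted p = 0.18, edgeR) and CDKN2D (adjusted p = 0.22, edgeR) lost their calls. DESeq2 called 13625 genes and 8 members. Directions of CDK6, CDK4, CCND2, CCND3, RBL1 and E2F1 held under every alternative run. The cause of these changes was not tested. Read counts were lowest for CCND2 in HPB-ALL, from 363, and for CDKN2D in KOPTK1, from 644.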
